A study of Caenorhabditis elegans with 2 samples.

Results

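The regions described here are the places on the X chromosome of *Caenorhabditis elegans* where ChIP-seq of the homeobox protein CEH-82 gave a listed region away from every protein-coding promoter. They are the rows on X of the authors' pooled list on build ce11 whose summit, the highest point of a region, lay outside the window from 1000 bp upstream to 200 bp downstream of each protein-coding gene start in the WBcel235 annotation. Of the 9070 pooled rows, 1798 were on X and 1392 of these met the rule. The authors' optimal list, thresholded by the irreproducible discovery rate (IDR, a measure of how well ranks hold between replicates), contained 60 of the 1392 (4.31%). These 60 are called reproducible regions below, and the other 1332 are called weaker regions, because the optimal list is made of the 537 pooled rows with the highest signal values. The word reproducible stands here for membership of that list only. Of the 60, 26 were among the 537 strongest rows of both replicates. Another 11 could not be paired with any row of replicate 1 when summits were allowed to differ by up to 100 bp.

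Whole L2 larvae of strain OP212 were used, with 2 biological replicates that form 1 group. Animals of both replicates carry the unc-119(ed3) mutation on chromosome III and the transgene ddEx58, which gives CEH-82 tagged with eGFP. The labels do not agree on its form: the name ddEx58 is that of an extrachromosomal array, which can be lost from some cells and can hold many copies of its DNA, but they also speak of an insertion. The animals were of mixed sex, no tissue was separated, and neither an untagged strain nor the control alignment was analysed here. The gene ceh-82 itself lies on chromosome II.

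X in *C. elegans* is under dosage compensation: a condensin complex binds along both X chromosomes of hermaphrodites and lowers their transcription. The complex is recruited at sites on X that often hold a motif with the core GCGCAGGG, many of them outside promoters. Homeodomains mostly bind AT-rich sites such as TAATTA. Transfer RNA genes are transcribed by RNA polymerase III from promoters inside the gene, one of which, the B box, contains GGTTCGA.

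Counted down from the strongest, 13 regions held the core GCGCAGGG before the first region without it. A match was exact or with 1 mismatch, within 100 bp on either side of the summit. The number 13 was thus set by the match itself. The best matches of the 13 are shown with 14 bases on each side, read on the strand of the core, from the strongest region down. Capitals mark the 8 bases matched to the core. Sequence is from RefSeq's copy of WBcel235, the assembly that ce11 names.
X:6296493-6296611, plus strand: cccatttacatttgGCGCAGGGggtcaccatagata
X:4209240-4209324, minus strand: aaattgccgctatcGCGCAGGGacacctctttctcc
X:11094153-11094282, minus strand: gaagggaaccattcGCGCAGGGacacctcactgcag
X:13700790-13700944, minus strand: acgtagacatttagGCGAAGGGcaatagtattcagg
X:806557-806820, plus strand: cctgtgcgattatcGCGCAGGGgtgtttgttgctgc
X:16681984-16682247, minus strand: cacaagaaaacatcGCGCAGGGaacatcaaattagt
X:8036383-8036459, minus strand: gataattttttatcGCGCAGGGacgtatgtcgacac
X:11937422-11937685, plus strand: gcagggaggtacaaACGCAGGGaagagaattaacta
X:9465752-9466015, plus strand: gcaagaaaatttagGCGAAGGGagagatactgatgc
X:1626989-1627252, plus strand: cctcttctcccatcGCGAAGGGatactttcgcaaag
X:16056467-16056730, minus strand: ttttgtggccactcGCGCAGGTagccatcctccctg
X:2996975-2997238, minus strand: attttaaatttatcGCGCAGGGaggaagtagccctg
X:5429403-5429666, plus strand: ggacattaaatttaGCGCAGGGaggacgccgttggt
These letters were not used to choose the regions. The grouping by match to the core was chosen after the strongest regions had been seen.

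Exact cores were also present at 4 reproducible regions of lower signal, shown here for comparison with the strongest ones, with capitals as before.
X:2364769-2365032, minus strand: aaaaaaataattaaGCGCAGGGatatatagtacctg
X:4395519-4395782, plus strand: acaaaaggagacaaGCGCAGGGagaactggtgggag
X:17181293-17181556, minus strand: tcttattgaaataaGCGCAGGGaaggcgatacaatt
X:13514458-13514721, plus strand: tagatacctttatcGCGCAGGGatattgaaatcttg
The whole window of the strongest region is printed on the plus strand, with both of its exact cores in capitals.
X:6296458-6296658: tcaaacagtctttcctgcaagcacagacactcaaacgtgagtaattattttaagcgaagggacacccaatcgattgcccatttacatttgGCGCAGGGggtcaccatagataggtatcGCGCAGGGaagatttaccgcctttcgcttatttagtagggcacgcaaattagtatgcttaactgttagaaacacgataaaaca
It also holds the 1-mismatch form GCGAAGGG, in lower case, upstream of both.

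The exact core was found in the windows of 12 of the 60 reproducible regions (20%, exact Clopper-Pearson 95% interval 10.8 to 32.3) and of 4 of the 1332 weaker ones (0.300%, 0.0819 to 0.767). With up to 1 mismatch the counts were 23 (38.3%, 26.1 to 51.8) and 67 (5.03%, 3.92 to 6.34). No test was made of this or any other share, because both samples form 1 group and regions of 1 pooled list share their libraries. The intervals cover counting over regions only. Among the words that differ from the core at 1 position, GCGAAGGG was the one held by the most reproducible regions, 10 of 60 (16.7%) against 6 of 1332 weaker ones (0.450%), and 5 of the 10 had no exact core. Matches were searched on both strands, and a match describes letters, not binding.

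The exact core was rarer in the other reproducible regions of the list. It was in 3 of 56 X regions in coding promoter windows (5.36%, 1.12 to 14.9), in 1 of 130 autosomal regions away from coding promoters (0.769%, 0.0195 to 4.21) and in none of 291 autosomal promoter regions (upper bound 1.26%). With up to 1 mismatch the core was more frequent in reproducible than in weaker rows of these sets too, at 21.4% against 6.57% for X promoter rows, 16.2% against 3.77% for autosomal rows away from promoters and 12.7% against 5.36% for autosomal promoter rows. X carries 81 exact cores, or 4.57 per Mb, and the autosomes 233, or 2.82 per Mb. A summit of the whole optimal list lay within 100 bp of 19 of the 81 on X (23.5%) and of 1 of the 233 on autosomes (0.429%). Most cores on X thus had no reproducible summit beside them.

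At the 12 reproducible regions with an exact core there were 16 sites, 4 regions having a pair each. The centre of the core was 1 to 82 bp from the summit, with a median of 25 bp, and 11 of the 16 were within 35 bp. Bases next to the core were not alike at these 16 sites and at the other 65 on X, a difference looked for after the sequences were seen. The 65 are not all without a reproducible summit. Any summit of the whole optimal list was within 100 bp of 19 cores on X, those in coding promoter windows included. An A followed the core directly at 14 of 16 sites and at 20 of 65. The letters ATC came directly before it at 9 of 16 and at 4 of 65. Both features are visible in the sequences printed above, for example at X:4209240-4209324 and X:16681984-16682247.

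**Figure D1:**
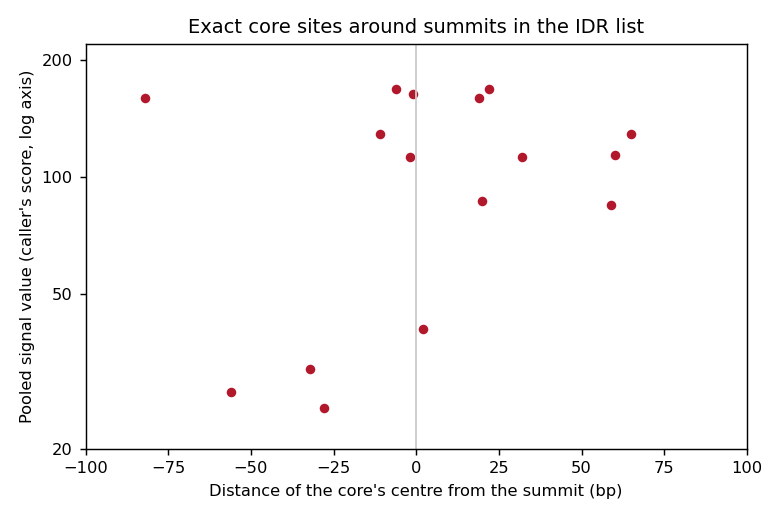
Each point is 1 of the 16 exact core sites within 100 bp of a reproducible summit, with the distance of the core's centre from the summit on the x axis (bp, plus strand to the right) and the pooled signal value of the region on a log y axis. Sites lay on either side of the summit, at 1 to 82 bp, and the 4 regions with a pair of sites appear as 2 points at 1 height.

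Signal values are the authors' own score for each region and are used here only to rank regions within 1 list. The reproducible regions had pooled values from 21.1 to 168 with a median of 28.2, and the weaker ones 7.40 to 20.8 with a median of 8.74. This split is fixed by the threshold and is no finding. Of all pooled rows 5.92% were reproducible, and the shares were 13.8% for X rows in coding promoter windows, 2.6% for autosomal rows away from coding promoters and 12.8% for autosomal rows in coding promoter windows. The 4.31% of the X regions away from promoters therefore stood below the share of promoter rows on either kind of chromosome and above that of the autosomal rows away from promoters. Just inside the threshold was X:8368209-8368472, in an intron of F40B5.2, with 21.1, and just outside it X:16961441-16961704, an intergenic region at -2298 bp from the start of F52G3.1, with 20.8.

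The strongest region, X:6296493-6296611, lay in an intron of mom-1, which encodes an acyltransferase needed to make active Wnt ligands, and had a pooled signal value of 168. Its own value was 63.6 in replicate 1 (rank 2 of 30000) and 105 in replicate 2 (rank 6). It was close to the top in both replicates.

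Next came 3 intergenic regions with nearly equal pooled values. X:4209240-4209324, at -1786 bp from the start of F20B6.9, had 164, with 60.8 in replicate 1 and 106 in replicate 2 (rank 5 in each). X:11094153-11094282, whose nearest coding start was that of W02H3.3, had 160.0, with 63.3 in replicate 1 (rank 3) and 100.7 in replicate 2 (rank 7). X:13700790-13700944, at -6031 bp from the start of K02D3.1, had 156, with 57.1 in replicate 1 (rank 6) and 96.3 in replicate 2 (rank 8), and it had the core only with 1 mismatch. All 4 leading regions were thus within the strongest 8 rows of each replicate.

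Below them, X:806557-806820 near gtr-1 had a pooled value of 129, with 53.1 in replicate 1 and 81.7 in replicate 2. X:16681984-16682247 near F22H10.2 had 114, with 31.1 and 86.4. X:8036383-8036459 had 113, with 34.7 in replicate 1 (rank 18) and 78.3 in replicate 2 (rank 13). This last region carried a pair of exact cores and lay at -4906 bp from xol-1, the switch gene of sex determination and dosage compensation that is turned on in males. It was at -267 bp from the closer noncoding RNA gene C18A11.13 and near C18A11.t2, a tRNA-Arg gene.

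The remaining 6 of the 13 had pooled values from 94.8 down to 84.6. In this set, intergenic X:11937422-11937685 near F55G7.5, X:9465752-9466015 near ZK899.6, X:1626989-1627252 at -1016 bp from the F-box gene fbxb-58 and X:16056467-16056730 near T27A8.7 held the core with 1 mismatch. The other two held it exactly, X:2996975-2997238 in an intron of Y41G9A.17 and X:5429403-5429666 in an exon of pks-1, which encodes a polyketide synthase. Replicate 1 ranked these 6 between 13 and 42 and replicate 2 between 16 and 26. The pks-1 region was the one reproducible region in an exon of a protein-coding gene, with 23.8 in replicate 1 (rank 36) and 60.5 in replicate 2 (rank 22).

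After the 13, the last of which had 84.6, came X:14708249-14708512 with 69.1. Falls of similar size lay between other neighbours in rank, as from 156 to 129 and from 69.1 to 55.5. The region after the 13 lay at -1520 bp from tmem-184 and -287 bp from the noncoding RNA gene F33C8.9. It had 21.1 in replicate 1 and 48.1 in replicate 2. Its closest match to the core had 2 mismatches. Of the next 6 regions, only X:2364769-2365032 near T24D8.6 (40.8) held a core with up to 1 mismatch. The other 5 were X:12363093-12363356 near F19H6.5 (55.5), X:1389401-1389664 near F56C3.1 (51.4), X:1909465-1909728 near ZC53.1 (47.2), X:13145201-13145464 in an intron of F09A5.3 (42.3) and X:16929586-16929849 near the noncoding RNA gene C30E1.9 (39.6). All 20 were among the 537 strongest rows of each replicate.

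**Figure D2:**
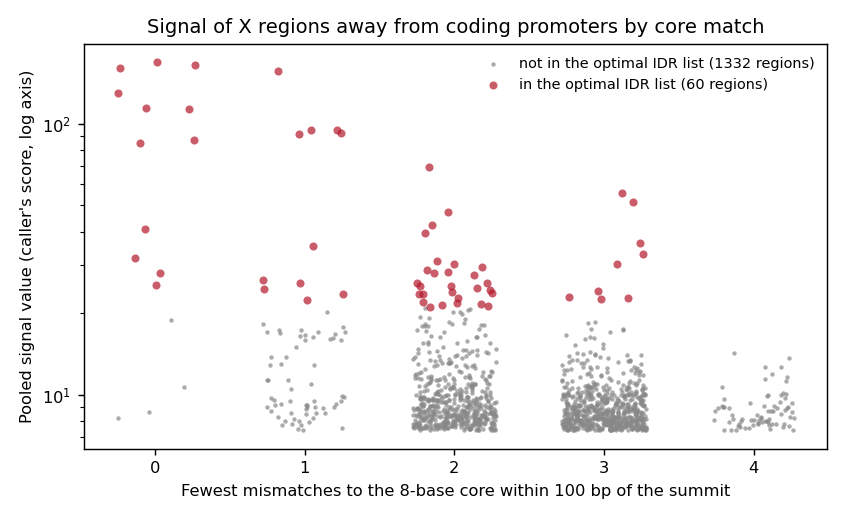
Each point is 1 of the 1392 regions, placed by its fewest mismatches to the 8-base core within 100 bp of the summit (x axis, spread sideways to show the points) and by its pooled signal value (log y axis, the caller's score). The 13 regions at 84.6 or above have at most 1 mismatch, a cut placed just above the first region with 2 mismatches. The weaker regions, drawn in grey, have 2 or 3 mismatches in most cases.

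The remaining reproducible regions with an exact core had unequal ranks in the replicates. X:4395519-4395782, whose nearest coding start is that of the clathrin adaptor gene dpy-23, had 5.56 in replicate 1 (rank 2968) and 25.4 in replicate 2 (rank 147). X:13514458-13514721, at -3493 bp from the collagen gene col-185, had 7.02 (rank 1076) and 19.5 (rank 269). X:17181293-17181556, near B0302.2, had 8.57 (rank 486) and 19.2 (rank 289). Replicate 2 ranked all 3 higher than replicate 1 did. In contrast, the T24D8.6 region ranked 63 in replicate 1 and 260 in replicate 2.

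Signal and match to the core went together within the reproducible regions. The classes by match were chosen after the strongest regions had been seen, so these values describe that observation and are no separate support for it. The 23 with at most 1 mismatch had a median pooled value of 86.9 (range 22.4 to 168), and the 37 with 2 or more had 25.3 (21.1 to 69.1). By rank in groups of 10, regions with at most 1 mismatch numbered 10, 4, 2, 4, 2 and 1. The 4 weaker regions with an exact core were X:489814-490077 in an intron of the FGF gene egl-17 at -7 bp from a tRNA-Asp gene (18.9), X:1437153-1437416 (10.7), X:16202328-16202591 (8.66) and X:4208656-4208919 (8.20). The last of these, at -1303 bp from the start of F20B6.9, is a neighbour of the strong region X:4209240-4209324 and was not matched in either replicate. An exact core was therefore also found at regions close to the lowest value listed.

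Reproducible regions lay between genes more often than the weaker ones did. Of the 60, 36 were intergenic (60%, 46.5 to 72.4), 17 in introns (28.3%, 17.5 to 41.4) and 7 in exons (11.7%, 4.82 to 22.6), where exons and introns of coding and noncoding genes were counted and an exon took precedence. Of the 1332 weaker regions, 35.3% were intergenic, 32.7% in introns and 32.1% in exons. Intervals for the intergenic and the exonic share did not overlap between the sets, and those for introns did. Among autosomal regions away from coding promoters, 37.7% of the 130 reproducible ones were intergenic, 37.7% in introns and 24.6% in exons, against 25.2%, 38.8% and 36% of the 4875 weaker ones. The higher intergenic and lower exonic share of reproducible regions was thus seen on autosomes as well. Of the 7 exonic reproducible regions on X, 6 were in exons of noncoding genes only, 3 of them tRNA genes.

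Among the reproducible regions, the intergenic share was higher in those with the core, exactly or with 1 mismatch. Of the 23 reproducible regions with at most 1 mismatch, 19 were intergenic (82.6%, 61.2 to 95.0), and of the 37 with 2 or more mismatches 17 were (45.9%, 29.5 to 63.1), and these intervals overlap narrowly. Of the 12 with an exact core, 9 were intergenic (75%, 42.8 to 94.5). That interval overlaps more widely with the one for 2 or more mismatches. Among the weaker regions the share was 37.3% (25 of 67) with at most 1 mismatch, against 35.3% over all weaker regions. Distances to the nearest coding start were 488 to 15185 bp in the reproducible set, with a median of 2765.5 bp, and 204 to 26831 bp in the weaker set, with a median of 2526.5 bp.

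Of the 17 intronic reproducible regions, 6 lay in lin-14, the heterochronic gene that sets larval timing, with 2 regions (25.8 and 21.9), the nuclear receptor gene daf-12 (27.8), aak-2, a catalytic subunit of AMP-activated kinase (25.3), pdk-1, a kinase of insulin signalling (29.6), and ldb-1, a LIM-domain binding cofactor (30.3). These were picked after their values were seen, and the other 11 lay in mom-1, Y41G9A.17, F09A5.3, unk-1, ZK470.2, ZK1193.2, rgs-6, him-4, rme-4, sulp-3 and F40B5.2. The daf-12 region was not matched in replicate 1 and had 29.5 in replicate 2 (rank 109), where a match is a replicate summit within 100 bp. The ldb-1 region had 16.0 in replicate 1 (rank 94) and 13.0 in replicate 2 (rank 675). Neither was among the 537 strongest rows of both replicates, whereas the pdk-1 region was, at ranks 112 and 484.

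Noncoding genes were near many of the reproducible regions, and among the single classes counted the share near tRNA genes differed by the most percentage points from that of the weaker ones. A noncoding gene start lay within 1000 bp of 26 of the 60 summits (43.3%, 30.6 to 56.8) and of 402 of 1332 (30.2%, 27.7 to 32.7), with overlapping intervals. For tRNA genes the counts were 13 (21.7%, 12.1 to 34.2) and 64 (4.80%, 3.72 to 6.09), and within 100 bp 11 (18.3%, 9.52 to 30.4) and 45 (3.38%, 2.47 to 4.49). The tRNA share within 1000 bp depended on the replicate: it was 9.72% (7 of 72) when the 537 strongest rows of replicate 1 alone stood in for the optimal list, and 16.4% (9 of 55) with those of replicate 2 alone. Starts of genes annotated as ncRNA, a broad class, were near 30% of reproducible and 25.4% of weaker regions, with overlapping intervals. MicroRNA starts were near 3 of 60 reproducible (5%, 1.04 to 13.9) and 8 of 1332 weaker regions (0.601%, 0.260 to 1.18), and snoRNA starts near 1 (1.67%, 0.0422 to 8.94) and 11 (0.826%, 0.413 to 1.47). No reproducible region had a piRNA, lincRNA or pseudogene start within 1000 bp (0 of 60, upper bound 5.96%). The weaker regions had them in 21 (1.58%), 6 (0.450%) and 13 cases (0.976%). These shares lie below the bound, so the absence from 60 regions shows no difference.

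**Figure D3:**
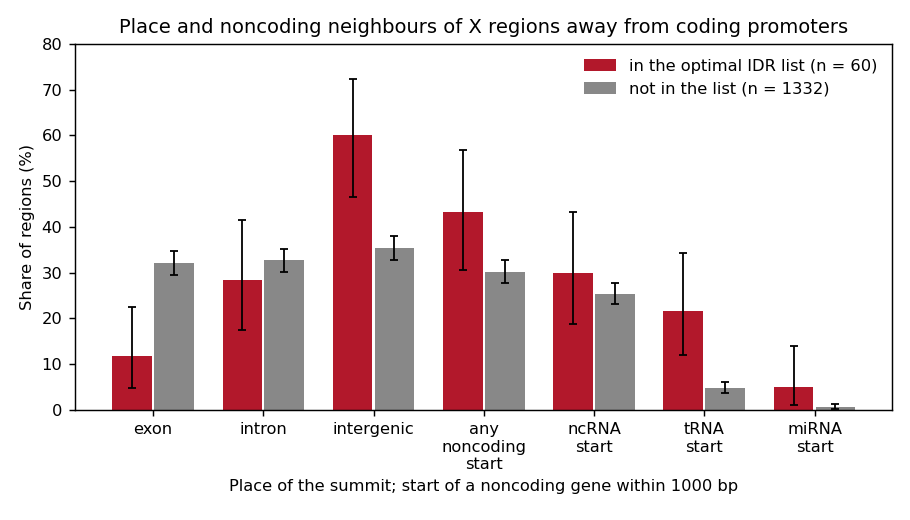
Bars give the share of regions (%) by place of the summit and by a noncoding gene start within 1000 bp, for the 60 reproducible regions and the 1332 weaker ones, with exact 95% binomial intervals that cover counting over regions only. The intergenic bar is 60% against 35.3%, the exon bar 11.7% against 32.1% and the tRNA bar 21.7% against 4.80%.

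The regions at tRNA genes were of modest signal. The 11 reproducible ones within 100 bp of a tRNA start had pooled values of 21.5 to 36.4, so all lay below the 20 strongest regions. The highest was X:5801169-5801432, at -19 bp from F46G11.t2, a tRNA-Pro gene, with 10.6 in replicate 1 (rank 246) and 25.9 in replicate 2 (rank 143). X:16209768-16210031, at -48 bp from the tRNA-Tyr gene R11.t1, had 8.18 (rank 589) and 24.0 (rank 165). X:13306937-13307200, inside the tRNA-Val gene R04D3.t2, had 18.1 (rank 69) and 10.6 (rank 998). Just 1 of the 11 was among the 537 strongest of both replicates, 5 were not matched in replicate 1, and all 11 were matched in replicate 2.

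The window at R04D3.t2 is shown because its summit falls in the gene and the B box letters can be read there. It is on the plus strand, and capitals mark GGTTCGA and its reverse complement, which overlap.
X:13306969-13307169: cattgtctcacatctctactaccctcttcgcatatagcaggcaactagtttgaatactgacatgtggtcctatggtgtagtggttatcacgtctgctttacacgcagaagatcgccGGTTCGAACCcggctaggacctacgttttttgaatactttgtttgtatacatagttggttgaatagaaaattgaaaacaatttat
GGTTCGA was in 7 of the 11 windows of reproducible regions at tRNA starts and in 20 of the 45 of weaker ones. Over all windows it was in 15% of reproducible (7.10 to 26.6) and 3.00% of weaker regions (2.15 to 4.07). Of the 276 tRNA genes annotated on X, 59 had one of the 1392 summits within 100 bp of the start and 13 a reproducible one. Most X tRNA genes thus had none of these summits at their start. Summits in coding promoter windows are left out by the rule, so any at tRNA genes beside coding starts were not counted.

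Among the microRNA genes, the cluster of mir-54, mir-55 and mir-56 in an intron of F09A5.3 held 2 reproducible regions with summits 574 bp apart. X:13145201-13145464 had 19.8 in replicate 1 (rank 51) and 22.7 in replicate 2 (rank 192), and its summit was at -62 bp from the noncoding RNA gene F09A5.11 of the same intron. X:13144627-13144890, with its summit in mir-56, 28 bp from the start, had 8.06 (rank 620) and 12.1 (rank 779). Only the first was among the 537 strongest of both replicates. The C30E1.9 locus also held 2 regions, 1294 bp apart, with the stronger one at -196 bp from the start and the other, X:16930880-16931143 (33.2), in its exon.

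The reproducible regions were spread over the whole of X. In 3 segments of equal length, X:1-5906314, X:5906315-11812628 and X:11812629-17718942, they numbered 18 of 462 regions (3.90%, 2.33 to 6.09), 16 of 474 (3.38%, 1.94 to 5.42) and 26 of 456 (5.70%, 3.76 to 8.24). The intervals overlap. Each of 18 bins of 1 Mb, the last one shorter, held 1 to 8, and the bin from 16 to 17 Mb held the most, 8 of 76 (10.5%). The median gap between neighbouring reproducible summits was 207521 bp, and 4 pairs lay within 5000 bp of each other. Regions with at most 1 core mismatch were in all 3 segments (7, 7 and 9), were at least 31720 bp apart and had a median gap of 779106 bp.

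The replicates ranked the reproducible regions unequally. A summit within 100 bp was present for 49 of the 60 in the replicate 1 list (81.7%, 69.6 to 90.5) and for 59 in that of replicate 2 (98.3%). Over the whole optimal list these shares were 91.6% (88.9 to 93.8) and 98.9%. Among the 537 strongest rows were 34 in replicate 1 (56.7%, 43.2 to 69.4), 48 in replicate 2 (80%, 67.7 to 89.2) and 26 in both (43.3%, 30.6 to 56.8). Over the whole optimal list 56.1% were among the strongest rows of replicate 1, 82.1% of replicate 2 and 44.7% of both. The X regions stood close to the list in these shares, and the imbalance between replicates was not particular to them. Of the weaker regions 38, 7 and 0 met these criteria. The authors' threshold used both replicates, so these counts are not independent of it.

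Regions with at most 1 core mismatch were in the strongest rows of both replicates in 15 of 23 cases (65.2%, 42.7 to 83.6), and the others in 11 of 37 (29.7%, 15.9 to 47.0), with intervals that overlap. Over the 48 regions found in both lists the signal values of the replicates had a Spearman rho of 0.64 and a Pearson r of 0.91. For the 19 with at most 1 mismatch rho was 0.86, and for the 29 others 0.15. These are descriptions over regions that share 2 libraries and were selected on those libraries, and the former class spans a wider range of signal.

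**Figure D4:**
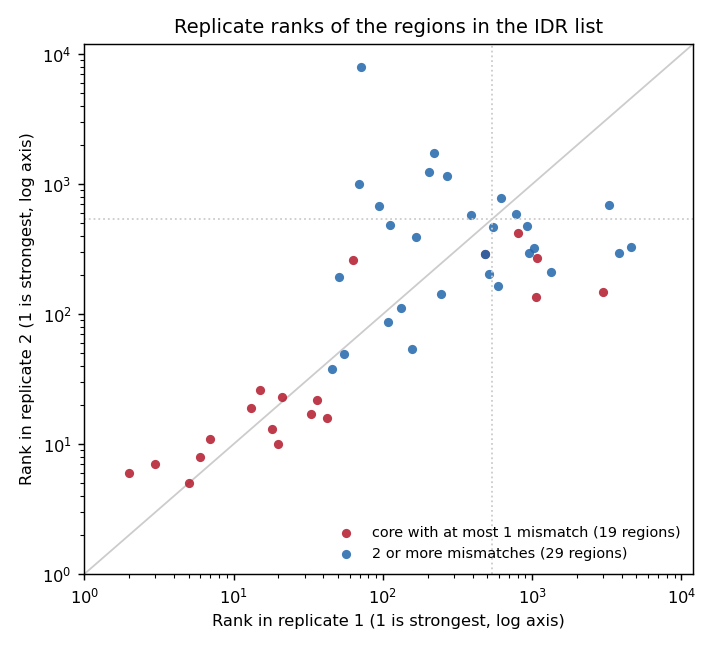
Each point is 1 of the 48 reproducible regions found in both replicate lists, with its rank in replicate 1 (x) and replicate 2 (y) on log axes, where 1 is the strongest. Dotted lines mark rank 537 and the solid line equal ranks. The 13 strongest regions lie at ranks 2 to 42 and 5 to 26. Regions with 2 or more core mismatches scatter to ranks of 4623 and 7918, and those with at most 1 mismatch to rank 2968 in replicate 1.

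The reproducible regions with the lowest rank in either replicate were taken for a closer description. X:5729143-5729406, in an intron of rgs-6, a regulator of G protein signalling, had 18.0 in replicate 1 (rank 71) and 5.22 in replicate 2 (rank 7918). X:14016856-14017119, at -965 bp from the noncoding RNA gene C04C11.8, had 4.96 (rank 4623) and 18.2 (rank 326). The 11 regions not matched in replicate 1, daf-12 among them, and the 1 not matched in replicate 2 have no rank to compare. The latter, X:10766159-10766422, at -2991 bp from sma-9, a zinc finger gene of body size signalling, had 17.5 in replicate 1 (rank 74) and was not matched in replicate 2.

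The 5 strongest weaker regions also ranked differently in the replicates, some of them only moderately. X:16961441-16961704 had 3.32 in replicate 1 (rank 15170) and 17.9 in replicate 2 (rank 337). X:12563636-12563899, at -20 bp from the tRNA-Thr gene R01H5.t1, ranked 1332 and 602. X:15736539-15736802, with 1 core mismatch, ranked 162 and 2547. X:827544-827807, near wdr-54, and X:993135-993398, near the diacylglycerol kinase gene dgk-1, ranked 440 and 816, and 430 and 955. None of these 5 was among the 537 strongest in both replicates.

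Base composition differed between the sets. The windows of 100 bp on either side of the summit of the reproducible regions had a median GC content of 46.0% (28.4 to 59.7), and those of the weaker regions 38.3% (19.9 to 63.7). Windows with at most 1 core mismatch had a median of 41.8% and the other reproducible ones 47.8%. Repeat-masked letters made up a median of 12.2% of reproducible and 19.4% of weaker windows. GC content was thus higher in the reproducible than in the weaker set, while within the reproducible set the 10 strongest regions had a median of 41.8% and the 10 with the lowest signal 47.0%. The part of GC content in the motif shares was not tested.

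Of the other motifs, the repeat GAGAGAGA was in 13.3% of reproducible (5.94 to 24.6) and 3.00% of weaker regions (2.15 to 4.07). Its share was higher in the reproducible autosomal regions away from promoters, at 30% (22.3 to 38.7). Reproducible regions on X away from promoters held the homeodomain core TAATTA in 11.7% of windows (4.82 to 22.6) and weaker ones in 7.28% (5.94 to 8.81), with overlapping intervals. None of the 130 reproducible autosomal regions away from promoters held it (upper bound 2.80%), against 8% of the weaker ones. Among reproducible promoter regions it was in 7.56% on autosomes (4.80 to 11.2) and 3.57% on X (0.435 to 12.3), so the site was not particular to X. The cut-like site ATCGAT was in 8.33% and 4.50%, the E-box CAGCTG in 10% and 3.45%, and the GATA site GATAAG in 5% and 8.56%. Intervals overlapped for ATCGAT and GATAAG, and for CAGCTG they met narrowly (3.76 to 20.5 and 2.54 to 4.58).

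Over all 2080 hexamers, with strands joined, the largest excess in reproducible regions was that of GAGAGA (46.7% against 17.2%), which is part of the GAGA repeat. It was followed by CAGGGA (31.7% against 4.35%), CCCTGC (28.3% against 2.85%), CTGCGC (28.3% against 3.75%) and CCCTTC (31.7% against 7.21%). The words CCCTGC and also CTGCGC are parts of the core on its other strand, while CAGGGA spans the end of the core and the A after it. The largest deficits were those of TCAAAA (15% against 43.4%), AAAACT (10% against 33.3%), AAAAAC (20% against 43.2%), AAAAGT (13.3% against 35.7%) and AAACTT (8.33% against 30.6%), all AT-rich. The window with the most GAGAGAGA sites among the reproducible regions, 10 when overlapping matches on both strands are counted, was that of X:2536498-2536761, in an exon of the noncoding RNA gene F52H2.13. It had 12.5 in replicate 1 (rank 166) and 16.9 in replicate 2 (rank 394), so it was among the 537 strongest of both.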

How the data were processed

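ChIP-seq region lists of 2 biological replicates were used, with fragment sizes of 150 to 350 bp per the labels. A text deposited beside the lists says that the authors made 1 list with background per replicate and 1 from the pooled alignments, each against a control, then applied IDR. Their aligner, caller and threshold were not given in the sources used here. The signal value is a score deposited by the authors without a stated scale, and the deposited format gives the significance column as −log10 of a q-value. The lists hold no read counts, so depth is unknown.

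Summits were annotated with Ensembl release 115 on WBcel235. Missing gene names came from RefSeq by WormBase ID. Coordinates are 1-based on ce11, whose X (17718942 bp in WBcel235) contains every row. A replicate row matched a region when summits lay within 100 bp. Motifs were searched on both strands of windows of 100 bp on either side of the summit, in Python 3.11.15 with numpy 2.4.6, pandas 2.3.3 and scipy 1.17.1. Intervals are Clopper-Pearson at 95%. The annotation and search steps were tested on simulated data. Its motif windows held only A and T apart from planted cores, so that test cannot show how often matches arise by chance.

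Members, lists and motifs were chosen with earlier results of these data known. The text names the 20 strongest reproducible and 5 strongest weaker regions, the lowest reproducible one, those with extreme replicate ranks, exact-core regions and up to 5 hexamers in each direction, and marks others chosen later. Classes by core mismatch, the cut after the 13 strongest regions, the groups of 10 and the 100 bp tRNA class were chosen after seeing the data.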

Additional observations from a re-analysis of the deposited data

How the results depend on the processing

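Of the alternatives for the reported shares, 38 values of the leading results moved by less than their interval and 11 by more. With promoter windows of all genes in the rule, which removes regions at noncoding starts, a noncoding start was near 2.86% and the last segment of X had 3.75% reproducible. In the stronger 50% of the optimal list, which has fewer regions by construction, the share reproducible was 2.16%, that of the last segment 2.63%, that in both replicates 83.3% and that with an exact core 33.3%. With noncoding starts up to 2000 bp away the share was 61.7%. Leaving out regions with at most 1 core mismatch, chosen after seeing the data, gave 2.84% reproducible, 45.9% intergenic, 59.5% with a noncoding start near and 29.7% in both replicates. With 1 replicate left out, the 537 strongest rows of the other took the place of the optimal list. Ranges were then 3.95% to 5.17% reproducible, 52.8% to 61.8% intergenic and 34.7% to 36.4% with a noncoding start near. They were 5.92% to 6.14% in the last segment and 15.3% to 21.8% with an exact core. The share in both replicates was 36.1% (26 of 72) and 47.3% (26 of 55). Its count still used both replicate lists, so it cannot show dependence on 1 replicate, though both values are among the 38. Without replicate 2, the tRNA share fell to 9.72%. On ce10, 115 of 1820 X rows (6.32%) were reproducible, against 116 of 1798 (6.45%) on ce11. No paired analysis was possible because the 2 samples form 1 group. Depth is unknown, so it sets no limit that can be stated.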
